A study of Homo sapiens with 60 samples.

Results

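The glycolysis and hypoxia target genes are a set of 38 genes, made of 16 glycolytic enzymes and 22 other targets of the hypoxia-inducible factors (HIF). They were picked by name from the 60675 genes of a count table of HepG2 cells, and all 38 passed the filter on low counts. HepG2 is a human hepatocellular carcinoma line. The cells had been exposed for 24 h to ethanol extracts (70% ethanol) of herbal medicines used as tonics, each at 500, 100 and 20 µg/mL, or to vehicle. The single drugs are named by genus from here on: Angelica for Angelicae Gigantis Radix, Paeonia for Paeoniae Radix, Cnidium for Cnidii Rhizoma, Rehmannia for Rehmanniae Radix Preparata, Astragalus for Astragali Radix, and Cinnamon for Cinnamomi Cortex. A pair of formulas, Sagunja-tang and Samul-tang, was also given. Of 60 libraries, 3 were vehicle. Cnidium, Rehmannia, Astragalus and Cinnamon had 3 libraries per dose, Angelica, Paeonia and Sagunja-tang had 2, and Samul-tang had 1. The vehicle was labelled 0.1% DMSO, whereas the text of the series names 2%, and that text also allows lower doses for toxic extracts although every label gives 500, 100 or 20 µg/mL. No label says whether replicates were separate cultures, so p-values measure only the spread between these samples, which may be technical.

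Glycolysis splits glucose into pyruvate and yields ATP without oxygen, and lactate dehydrogenase then turns pyruvate into lactate. HIF is a transcription factor of an oxygen-sensitive alpha subunit and ARNT. With oxygen present, prolyl hydroxylases of the EGLN family mark the alpha subunit, VHL recognises the mark and the subunit is degraded. When oxygen is low, or when the hydroxylases lack iron or cosubstrate, the subunit accumulates and drives genes for glucose uptake, glycolysis, pH control, vessel growth, mitophagy and collagen maturation. HIF protein is set largely by this degradation, so its mRNA does not report its activity. Oxygen in the cultures, HIF protein, glucose uptake and lactate were not measured here.

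HIF binds DNA at the core ACGTG or GCGTG, so the upstream sequences of the members were read for both forms. RefSeq start sites of GRCh38.p14 were at hand for 34 of the 38 members (not SLC2A3, VEGFA, BNIP3L and NDRG1). ACGTG, on either strand, was present in the 250 bases before a start in 11 of 16 glycolytic enzymes (68.8%). It was present in 12 of 18 other targets (66.7%), against 21.7% of all 27305 genes with a listed start. These genes were not matched to the count table. Members had more listed starts per gene (2.25 and 1.56 on average) than all genes (1.29). Per start window the shares for ACGTG were 14 of 36 windows, 14 of 28 windows and, for all genes, 18.5% of 35116. For either form they were 52.8%, 75.0% and 43.2%. A match describes letters only and is no binding site. The next 5 windows each end 1 base before the start and read 5′ to 3′ on the gene's strand. ACGTG is in capitals on whichever strand it lies, and GCGTG is left in small letters. CACGTG holds the core on both strands and is also the site of other factors. CA9, BHLHE40, ALDOC and LDHA are shown as members that hold the core and moved in several comparisons, and SLC2A1 as a member that moved and does not hold it in this window.
CA9, chr9:35673678-35673927, plus strand: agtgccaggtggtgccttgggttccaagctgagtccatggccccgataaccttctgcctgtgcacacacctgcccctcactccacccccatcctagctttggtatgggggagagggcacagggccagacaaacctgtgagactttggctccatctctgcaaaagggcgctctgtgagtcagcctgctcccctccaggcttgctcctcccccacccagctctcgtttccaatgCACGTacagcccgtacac
BHLHE40, chr3:4979187-4979436, plus strand: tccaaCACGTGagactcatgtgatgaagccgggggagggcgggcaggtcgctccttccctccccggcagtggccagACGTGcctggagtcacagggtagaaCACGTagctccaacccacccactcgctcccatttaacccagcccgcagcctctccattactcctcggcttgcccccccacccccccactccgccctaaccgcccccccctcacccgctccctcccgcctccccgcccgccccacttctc
ALDOC, chr17:28576896-28577145, minus strand: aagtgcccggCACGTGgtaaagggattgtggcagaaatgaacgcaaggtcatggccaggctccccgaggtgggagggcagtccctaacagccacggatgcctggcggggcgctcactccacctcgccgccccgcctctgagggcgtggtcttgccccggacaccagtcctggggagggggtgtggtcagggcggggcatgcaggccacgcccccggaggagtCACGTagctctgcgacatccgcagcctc
LDHA, chr11:18394313-18394562, plus strand: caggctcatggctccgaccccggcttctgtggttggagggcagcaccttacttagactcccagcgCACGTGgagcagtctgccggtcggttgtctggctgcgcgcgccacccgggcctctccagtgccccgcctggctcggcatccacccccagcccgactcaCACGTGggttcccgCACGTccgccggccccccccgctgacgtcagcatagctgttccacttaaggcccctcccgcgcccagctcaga
SLC2A1, chr1:42958869-42959118, minus strand: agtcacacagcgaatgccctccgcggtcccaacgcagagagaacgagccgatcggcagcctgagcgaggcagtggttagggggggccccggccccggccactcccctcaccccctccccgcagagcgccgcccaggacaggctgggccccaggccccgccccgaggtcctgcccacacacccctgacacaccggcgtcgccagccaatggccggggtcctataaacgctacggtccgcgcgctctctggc
The core lay 18 bases before the CA9 start, and LDHA and BHLHE40 held 3 matches each.

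Library depth ran from 21485882 to 34643028 counts, with 26383865 to 31017834 in vehicle. ALB and AFP, which mark the hepatocyte lineage, were at 10971 to 11603 and 12734 to 12991 CPM in the vehicle libraries. PTPRC and DCN, markers of leukocytes and fibroblasts, were at 0 in all 60 libraries, and KDR and CD3E did not exceed 0.06 CPM. Other markers of these lists were present. In vehicle the 4 leukocyte markers summed to 1203 to 1373 CPM, nearly all of it LYZ. The 4 fibroblast and stellate markers summed to 6.28 to 6.93 CPM. CPM are counts relative to library size, scaled by the TMM factors of edgeR, and a log2 change of 1 is a doubling of the level.

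In vehicle the glycolytic enzymes filled the top of the set. Levels of different genes were compared on a TPM scale, that is counts per kilobase of exon divided by their sum over all genes with a known length, so the numbers in the next sentences are not CPM. GAPDH, which oxidises glyceraldehyde phosphate, stood highest at 2503 ± 143 TPM (SD, n = 3), followed by ALDOA at 928 ± 14.5, ENO1 at 653 ± 30.0 and LDHA at 612 ± 31.2. ENO1 and LDHA did not differ beyond their spread. SLC2A1, the main basal glucose transporter, was the first non-enzyme, at 143 ± 7.62. The isoforms divided sharply, since HK2 stood at 46.8 ± 2.15 and HK1 at 0.41 ± 0.07, and PFKL at 40.6 ± 2.24 against PFKM at 0.69 ± 0.05 and PFKP at 0.52 ± 0.05. Hexokinases trap glucose as its phosphate and phosphofructokinases catalyse the committed step. CA9, a membrane carbonic anhydrase that serves pH control, stood at 4.40 ± 0.79. EGLN3, a hydroxylase, stood at 0.23 ± 0.02 and CA12, another carbonic anhydrase, at 0.11 ± 0.05, the lowest of the 38. CA12, PFKM and PFKP stayed below 5 CPM (the scale of all later levels) in every group mean. Abundant enzymes such as GAPDH, ENO1, PGK1 and LDHA have processed pseudogenes, between which the authors' counting may have split reads, and their levels are uncertain to that extent.

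At the lowest dose many HIF targets already stood above vehicle, and they did so in every extract. In the mean of the 7 replicated extracts at 20 µg/mL, 16 of 22 other HIF targets and 6 of 16 glycolytic enzymes were higher than vehicle and none was lower. DESeq2 and an unadjusted p under 0.05 also gave 22 higher and 0 lower. With library totals in place of TMM factors the split was 21 higher and 2 lower. Of all 16692 genes tested, 15.5% were higher, 16.8% were lower and 32.3% differed in either direction. The median log2 change was 0.42 over the HIF targets, 0.01 over the glycolytic enzymes and −0.01 over all genes. The vehicle libraries carry a code prefix of their own in the sample descriptions, so an effect shared by all extracts and a difference between prefixes cannot be told apart. The summed level of 8 hepatocyte-lineage markers was 51395 to 52982 CPM in vehicle and 53683 to 59203 CPM in the 19 libraries at 20 µg/mL, Samul-tang included, with no overlap. The mitochondrial share of counts was 13.6% to 15.3% (median 13.8%) and 11.0% to 21.9% (median 16.6%). Their part in the step at 20 µg/mL was not tested. RNA was taken from whole cultures, so more RNA per cell and more cells with the RNA cannot be told apart either.

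CA9 was at 2.02, 2.42 and 3.03 CPM in vehicle and between 3.23 and 7.06 CPM (median 5.33) in the 18 extract libraries at 20 µg/mL. All 18 lay above all 3 vehicle libraries. The log2 change was 1.02 ± 0.17 (SE, adjusted p = 1.23e-05). BHLHE40, a transcriptional repressor of the circadian system, was at 35.9, 40.8 and 33.9 CPM in vehicle and between 62.0 and 82.4 CPM (median 67.4) at 20 µg/mL. Its groups did not overlap either, and the change was 0.89 ± 0.06 (adjusted p = 1.5e-14). NDRG1, a stress-responsive protein of differentiation, ran from 42.1 to 89.5 CPM (median 74.0) against 32.6, 36.7 and 41.3 CPM, with a change of 0.96 ± 0.16 (adjusted p = 1.07e-05). KDM3A, a histone demethylase, rose by 0.72 ± 0.07, and PDK1, the kinase that closes pyruvate dehydrogenase, by 0.67 ± 0.08. Each had all 18 extract libraries above vehicle.

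The other members that passed ran from 0.88 down to 0.21. EGLN3 rose by 0.88 ± 0.21 at about 1 CPM, and EGLN1, the main oxygen sensor, by 0.36 ± 0.04. The mitophagy receptors BNIP3L and BNIP3 rose by 0.57 ± 0.08 and 0.41 ± 0.06, and the collagen enzymes LOX and P4HA1 by 0.53 ± 0.09 and 0.47 ± 0.06. SLC2A3, a high-affinity glucose transporter, VEGFA, the vessel growth factor, DDIT4, an inhibitor of mTOR signalling, and ERO1A, an oxidase of protein folding, rose by 0.42 ± 0.08, 0.40 ± 0.04, 0.36 ± 0.09 and 0.21 ± 0.04. ANKRD37 rose by 0.48 ± 0.19 at an adjusted p of 0.0478. The 6 that did not pass were SLC2A1 (0.03), SLC16A3 (−0.11), the lactate exporter, ADM (0.03), a vasodilator peptide, P4HA2 (0.03), MXI1 (0.05), an antagonist of MYC, and CA12 (−0.10).

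Among the glycolytic enzymes, ALDOC rose most at 20 µg/mL. Its levels were 29.7, 27.9 and 30.4 CPM in vehicle and 32.1 to 42.7 CPM (median 38.8) in the extracts, with no overlap, a change of 0.39 ± 0.07 and an adjusted p of 2.07e-05. HK2 rose by 0.35 ± 0.06, LDHA by 0.27 ± 0.04, PKM, the last enzyme before pyruvate, by 0.25 ± 0.05, GAPDH by 0.24 ± 0.05 and ALDOA by 0.19 ± 0.045. The enzymes that did not pass were PGK1 at 0.01, ENO1 at 0.01, TPI1 at −0.03, PGAM1 at −0.04 and GPI at −0.05, and also ENO2, PFKL, PFKM, PFKP and HK1, at −0.12, −0.03, −0.07, −0.27 and 0.39.

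**Figure D1:**
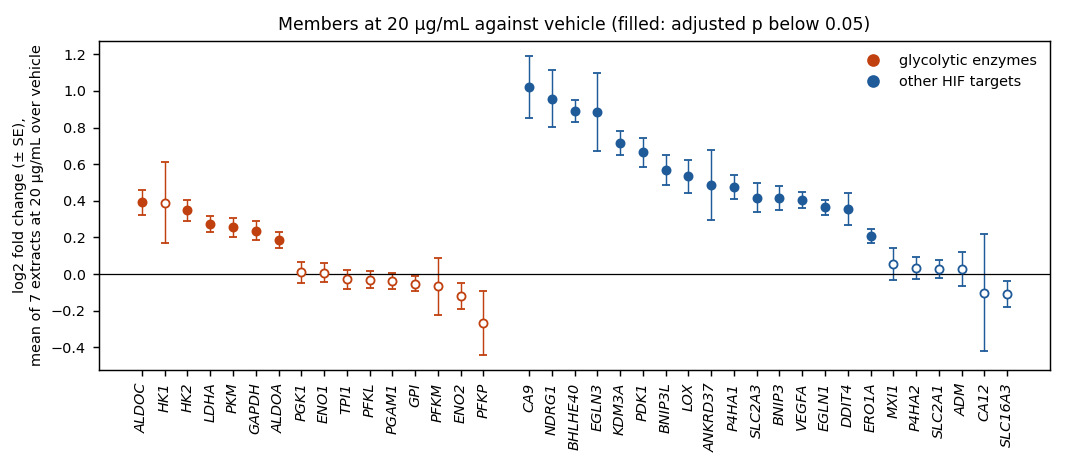
Log2 change of each of the 38 members at 20 µg/mL, as the mean of 7 extracts against vehicle, with its SE on the vertical axis. Filled points passed an adjusted p below 0.05: 16 other HIF targets, led by CA9 at 1.02, and 6 glycolytic enzymes, led by ALDOC at 0.39.

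Extract by extract, the counts at 20 µg/mL were alike. Between 12 (Astragalus) and 16 (Cnidium and Cinnamon) of the 22 other HIF targets and between 4 (Cinnamon and Sagunja-tang) and 7 (Paeonia) of the 16 glycolytic enzymes were higher than vehicle, and 1 was lower, TPI1 in Angelica (13.8% of all genes lower). These comparisons share the same 3 vehicle libraries. Background shares of higher genes ran from 5.74% in Cinnamon and 6.4% in Sagunja-tang over 7.03% in Astragalus, 9.08% in Cnidium, 9.76% in Paeonia and 9.78% in Rehmannia to 13.7% in Angelica. Libraries of number 1 under the code prefix of Astragalus and Cinnamon had less NDRG1 than numbers 2 and 3 at the lower doses, as with Astragalus at 20 µg/mL (42.1 against 70.1 and 67.2 CPM). The median over the 22 other targets was also lowest in number 1 in all 6 dose groups of these extracts, as with Astragalus at 20 µg/mL (log2 difference from vehicle 0.18 against 0.44 and 0.35) and Cinnamon at 20 µg/mL (0.21 against 0.54 and 0.38). Without these 6 libraries the count at 20 µg/mL was again 22 higher and 0 lower.

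From 20 to 500 µg/mL the extracts separated, and this comparison uses no vehicle library. Astragalus raised 15 of 16 glycolytic enzymes and 20 of 22 other HIF targets and lowered none (35 higher and 0 lower also at an unadjusted p under 0.05, 34 and 0 with DESeq2). In that extract 69.5% of all tested genes changed, with 34.2% of all tested genes higher. Paeonia raised 13 glycolytic enzymes and 20 other targets and lowered none (33 and 0 by either count), beside 30.6% of all tested genes changed and 16.8% of all tested genes higher. The median log2 change in Astragalus was 1.20 over the glycolytic enzymes and 1.14 over the other targets, against −0.02 over all genes. In Paeonia it was 0.52 and 0.85, against 0.003. With library totals in place of TMM factors, the median of all genes in Astragalus moved to −0.32, and changes there are relative to that shift.

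The other 5 extracts changed few members. Cnidium had 1 higher and 6 lower (18.4% of all genes changed), Sagunja-tang 5 and 4 (10.4%), and Rehmannia 1 and 0 (1.41%). Angelica had none (1.05%), with 9 higher and 0 lower at an unadjusted p under 0.05, and Cinnamon none (0.809%), with 1 and 1. DESeq2 gave none in either of these. The share of all genes at the unadjusted threshold was not counted.

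**Figure D2:**
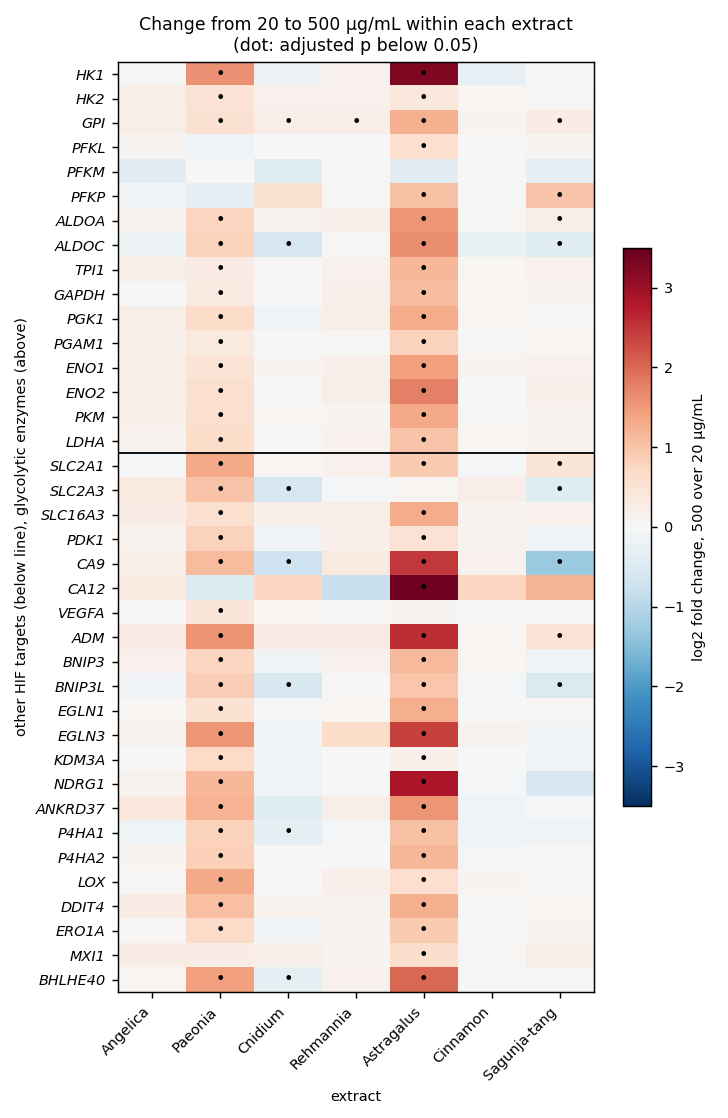
Log2 change from 20 to 500 µg/mL of each member (rows) in each replicated extract (columns), red for higher and blue for lower, with a dot where the adjusted p was below 0.05. The Astragalus and Paeonia columns hold 35 and 33 dots, all on rises, and the other 5 columns hold 17 in all.

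In Astragalus the largest rise of a glycolytic enzyme was that of HK1. It was at 0.88, 1.00 and 1.02 CPM at 20 µg/mL and at 8.02, 10.9 and 9.03 CPM at 500 µg/mL, a log2 change of 3.27 ± 0.23 (adjusted p = 6.56e-17). HK2, the main hexokinase of these cells, rose only by 0.38 ± 0.07, from 106, 118 and 120 to 143, 155 and 151 CPM. ENO2, the neuronal enolase, went from 29.2, 32.7 and 35.3 to 104, 119 and 109 CPM (1.77 ± 0.09, adjusted p = 1.11e-21). None of the groups of these 3 genes overlapped.

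Both aldolases rose with Astragalus. ALDOC went from 38.2, 39.6 and 40.9 to 136, 119 and 112 CPM, a change of 1.63 ± 0.08. ALDOA went from 1398, 1442 and 1478 to 4656, 4085 and 3824 CPM, a change of 1.54 ± 0.06 (adjusted p = 6.3e-26). ENO1 rose by 1.45 ± 0.07, PKM by 1.34 ± 0.06, PGK1 by 1.29 ± 0.07, GPI by 1.24 ± 0.05, TPI1 by 1.16 ± 0.07, GAPDH by 1.08 ± 0.07, LDHA by 1.00 ± 0.05 and PGAM1 by 0.80 ± 0.06. PFKP rose by 1.03 ± 0.23 at under 1.5 CPM and PFKL by 0.55 ± 0.06. PFKM, at −0.40 ± 0.22, did not pass.

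Among the other HIF targets in Astragalus, NDRG1 went from 42.1, 70.1 and 67.2 to 409, 444 and 440 CPM. Its log2 change was 2.85 ± 0.19 (adjusted p = 2.04e-17). ADM was at 7.44, 7.20 and 6.29 CPM at 20 µg/mL and at 40.8, 42.8 and 42.9 CPM at 500 µg/mL, a change of 2.59 ± 0.11. CA9 went from 3.80, 3.94 and 4.18 to 22.7, 22.7 and 21.4 CPM, a change of 2.49 ± 0.17. All 3 genes were high in every library at 500 µg/mL, with no overlap. EGLN3 rose by 2.39 ± 0.20, to 4.45, 5.36 and 5.23 CPM, and BHLHE40 by 2.01 ± 0.07, from 68.0, 70.6 and 64.6 to 271, 267 and 279 CPM. CA12 rose by 3.40 ± 0.32, from 0.31, 0.22 and 0.33 to 3.44, 3.03 and 2.704 CPM, and so stayed a rare RNA.

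The remaining targets in Astragalus rose by less. These were ANKRD37 (1.53 ± 0.21), SLC16A3 (1.297 ± 0.09), EGLN1 (1.28 ± 0.05), DDIT4 (1.28 ± 0.11), P4HA2 (1.15 ± 0.07), BNIP3 (1.14 ± 0.08), P4HA1 (1.02 ± 0.08), BNIP3L (0.98 ± 0.10), ERO1A (0.92 ± 0.05), SLC2A1 (0.92 ± 0.06), MXI1 (0.60 ± 0.11), LOX (0.59 ± 0.11) and PDK1 (0.52 ± 0.10). KDM3A passed narrowly at 0.18 ± 0.08 (adjusted p = 0.0484), and with library totals its change was −0.12. SLC2A3 at 0.08 ± 0.10 and VEGFA at 0.09 ± 0.06 did not pass, and VEGFA read −0.21 with library totals.

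Between 20 and 100 µg/mL most calls were in Astragalus. There 10 glycolytic enzymes and 7 other targets rose and VEGFA fell by 0.35 (29.1% of all genes changed). With library totals 5 were higher and 1 lower, and none of the 18 passed a fold minimum of 1.5. ALDOC rose by 0.48 ± 0.08 and BHLHE40 by 0.43 ± 0.07 over that step, and EGLN1 by 0.36 ± 0.05. VEGFA was at 125, 130 and 135 CPM at 20 µg/mL, at 97.6, 101 and 108 CPM at 100 µg/mL and at 124, 144 and 147 CPM at 500 µg/mL, so the middle dose was the low one, without overlap. Of the other extracts, Sagunja-tang had 1 member called at this step, BHLHE40 at 0.45 ± 0.09 (0.0539% of all genes). The remaining 5 had none, with 9 to 14 members higher and 0 lower at an unadjusted p under 0.05 and none with DESeq2. At an adjusted p below 0.05, 0.00599% of all genes were called in Angelica and Rehmannia, 0.18% in Cnidium and 0% in Paeonia and Cinnamon. The share of all genes at the unadjusted threshold was not counted, so the 9 to 14 members have no background.

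In Paeonia, HK1 again led the enzymes. It went from 1.78 and 1.61 CPM at 20 µg/mL to 4.57 and 5.58 CPM at 500 µg/mL (1.59 ± 0.28, adjusted p = 1.5e-05). ALDOC went from 40.0 and 39.3 to 66.8 and 72.0 CPM (0.81 ± 0.10), ALDOA from 1407 and 1375 to 2284 and 2376 CPM (0.74 ± 0.07). PGK1 and LDHA each rose by 0.65, with SEs of 0.09 and 0.07. PKM, ENO2, GPI, HK2, ENO1, PGAM1, GAPDH and TPI1 rose by 0.55 down to 0.29. No phosphofructokinase passed, with PFKL at −0.12, PFKM at 0.02 and PFKP at −0.31.

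Among the other targets in Paeonia, ADM went from 5.20 and 5.98 to 14.7 and 18.5 CPM (1.58 ± 0.15, adjusted p = 1.1e-11). BHLHE40 went from 65.9 and 67.9 to 177 and 187 CPM (1.45 ± 0.09). LOX, which cross-links collagen, went from 61.1 and 57.1 to 149 and 150 CPM (1.34 ± 0.13). The libraries at 500 µg/mL were the high ones for all 3, without overlap. SLC2A1 went from 228 and 257 to 579 and 634 CPM (1.32 ± 0.08, adjusted p = 1.79e-17) and NDRG1 from 89.5 and 78.2 to 180 and 193 CPM (1.15 ± 0.23). CA9 rose by 1.10 ± 0.22 and SLC2A3 by 1.01 ± 0.12. EGLN3, at 1.53 ± 0.26, and ANKRD37, at 1.21 ± 0.30, rose at under 5 CPM. The other 11 that passed ran from DDIT4 at 1.04 down to VEGFA at 0.42. CA12 at −0.49 ± 0.54 and MXI1 at 0.27 ± 0.14 did not pass.

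**Figure D3:**
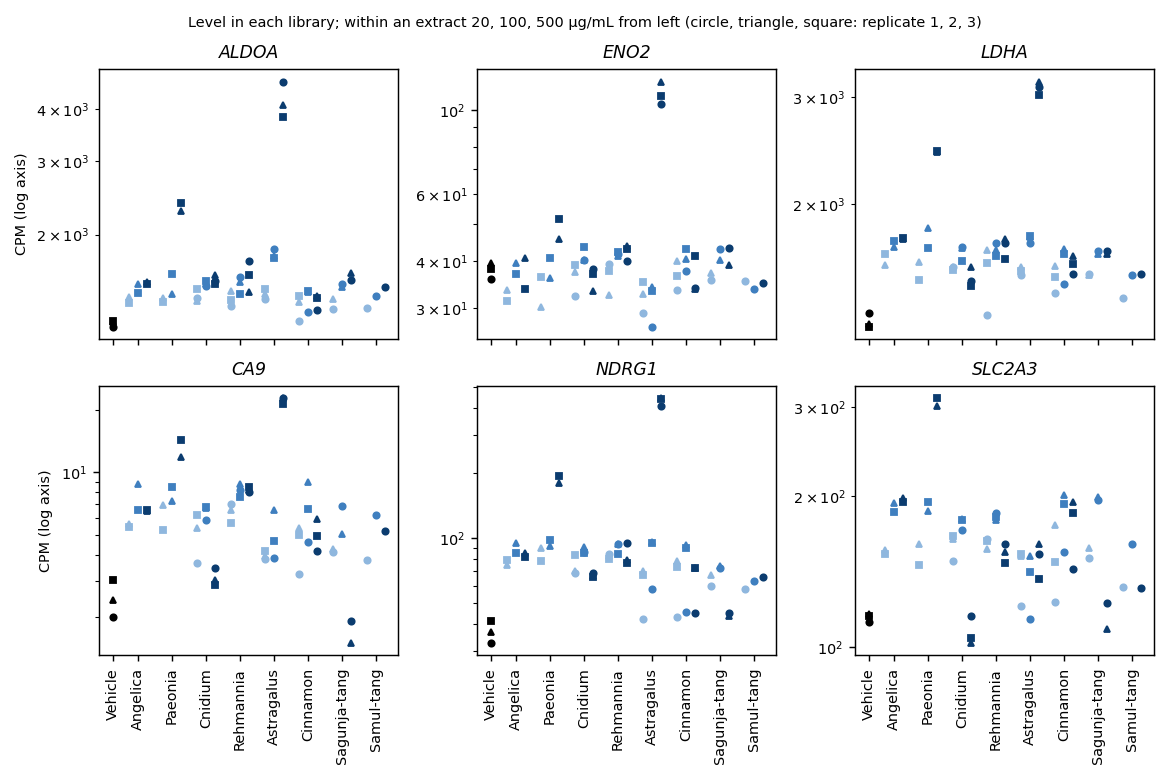
Level in CPM (log axis) of 3 glycolytic enzymes and 3 other targets in every library, with vehicle in black and blue deepening with dose within each extract. Astragalus and Paeonia at 500 µg/mL stand above the rest for 5 of the genes, whereas SLC2A3 is high with Paeonia and not with Astragalus.

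Of the 38 members 31 passed in both extracts, 4 only in Astragalus, 2 only in Paeonia and 1 in neither. All 31 were higher in both, as were 12.5% of all genes. The changes themselves were compared in a contrast added after the data were seen, which took the Paeonia change from the Astragalus change. It called 14 glycolytic enzymes, all larger in Astragalus, and 16 other targets, of which 11 were larger in Astragalus and 5 in Paeonia. Of all genes 48.4% were called, 22.4% larger in Astragalus and 26% in Paeonia. The enzymes differed most for HK1 (1.67 ± 0.38), PFKP (1.34 ± 0.38), ENO2 (1.22 ± 0.14) and ENO1 (0.98 ± 0.11), and HK2 (−0.12 ± 0.11) and PFKM (−0.42 ± 0.34) did not pass.

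Larger in Astragalus were CA12 (3.89 ± 0.65), NDRG1 (1.70 ± 0.29), CA9 (1.39 ± 0.28), ADM (1.01 ± 0.19) and EGLN3 (0.86 ± 0.35) by the most. The 5 larger in Paeonia were SLC2A3 (−0.93 ± 0.16), LOX (−0.75 ± 0.17), KDM3A (−0.53 ± 0.13), SLC2A1 (−0.40 ± 0.10) and VEGFA (−0.33 ± 0.09), the sign being Astragalus minus Paeonia. Both glucose transporters of the set were thus on the Paeonia side and the lactate exporter SLC16A3 (0.73 ± 0.15) on the Astragalus side. SLC2A3 shows it by library, at 302 and 313 CPM with Paeonia at 500 µg/mL and 153, 161 and 137 CPM with Astragalus. The 6 targets that did not pass were PDK1, BNIP3L, DDIT4, P4HA1, MXI1 and ANKRD37, with differences from −0.30 to 0.34.

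**Figure D4:**
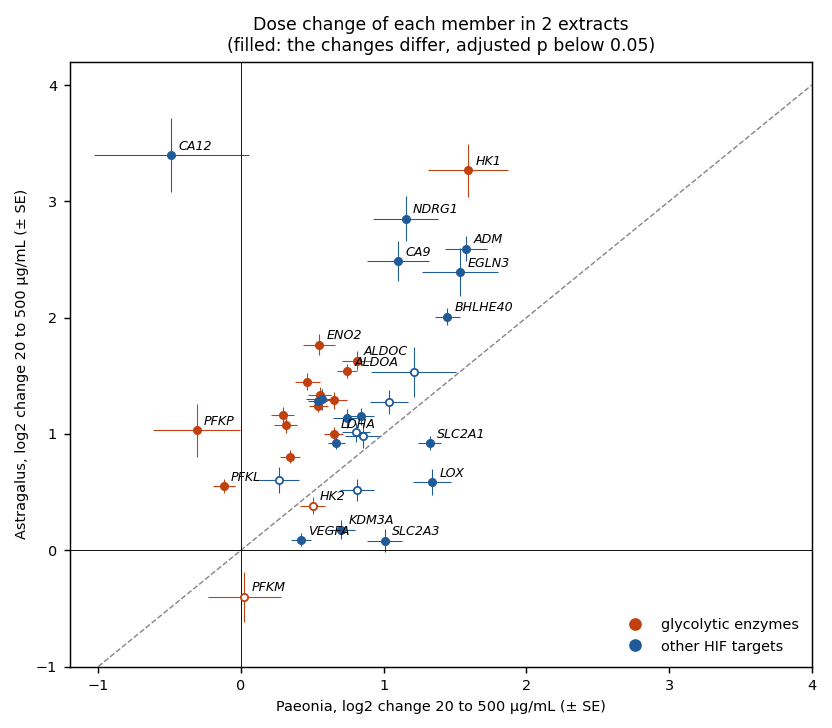
Log2 change from 20 to 500 µg/mL in Paeonia (horizontal) and Astragalus (vertical), each with its SE, for the 38 members. Filled points have changes that differ at an adjusted p below 0.05; glycolytic enzymes lie above the dashed line of equal change apart from HK2 and PFKM, and SLC2A3, LOX, KDM3A, SLC2A1 and VEGFA lie below it.

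In Cnidium the members that changed mostly fell. ALDOC went from 35.8, 38.9 and 42.7 CPM at 20 µg/mL to 24.8, 26.8 and 26.8 CPM at 500 µg/mL, a change of −0.58 ± 0.09, and thus lay below all 3 vehicle libraries. SLC2A3 went from 148, 165 and 167 to 116, 102 and 104 CPM (−0.58 ± 0.10). CA9 went from 3.66, 5.40 and 6.21 to 3.44, 3.03 and 2.86 CPM (−0.72 ± 0.21). None of the 3 overlapped between doses. BNIP3L (−0.56 ± 0.11), BHLHE40 (−0.33 ± 0.07) and P4HA1 (−0.32 ± 0.08) also fell, and GPI rose by 0.24 ± 0.05.

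In Sagunja-tang 4 of the same genes fell, ALDOC (−0.43 ± 0.11), CA9 (−1.302 ± 0.29), BNIP3L (−0.50 ± 0.13) and SLC2A3 (−0.41 ± 0.12). CA9 went from 4.12 and 4.28 to 1.92 and 1.503 CPM, below vehicle. SLC2A1 went from 240 and 229 to 331 and 296 CPM (0.42 ± 0.08), ADM rose by 0.48 ± 0.14, GPI by 0.27 ± 0.07 and ALDOA by 0.22 ± 0.07. PFKP rose by 0.99 ± 0.28 at about 1 CPM. These calls rest on 2 libraries a dose. Leaving out any 1 of the 4 (500 or 20 µg/mL, replicate 1 or 2) left 4 to 5 of the 9. In Rehmannia GPI alone rose, from 299, 274 and 291 to 336, 326 and 349 CPM (0.23 ± 0.05, adjusted p = 0.0157), and it did not pass without replicate 1 or replicate 3 at 500 µg/mL.

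Each extract's change from 20 to 500 µg/mL was then set against the mean change of the other 6. Astragalus had 34 members with a larger change and none smaller (64.8% of all genes called), and Paeonia 26 larger and 1 smaller, PFKL (22.6%). The other 5 had none larger and 11 (Angelica, 11%), 30 (Cnidium, 22.6%), 12 (Rehmannia, 10.6%), 23 (Cinnamon, 18.4%) and 11 (Sagunja-tang, 8.08%) smaller. With library totals these 5 counts were 5, 27, 5, 14 and 7, and with a fold minimum of 1.5 they were 1, 10, 1, 3 and 5. Those means include Astragalus and Paeonia. With both taken out of the reference, chosen after seeing the data, 3 members differed in Cnidium (3.05% of all genes), 2 in Sagunja-tang (1.53%), 1 in Rehmannia (0.539%) and none in Angelica (0.0779%) and Cinnamon (0.707%), where an unadjusted p under 0.05 gave 2 higher and 1 lower in Angelica and 2 and 2 in Cinnamon, and DESeq2 gave 1 higher in each. They were SLC2A3 (−0.60 ± 0.11), ALDOC (−0.38 ± 0.10) and BHLHE40 (−0.37 ± 0.08) in Cnidium, CA9 (−1.304 ± 0.31) and SLC2A1 (0.39 ± 0.08) in Sagunja-tang and ALDOC (0.41 ± 0.10) in Rehmannia. Against that reference Astragalus had 35 larger (65.3%) and Paeonia 32 (30%).

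Set against vehicle, the highest dose held both the step at 20 µg/mL and the dose change. Members higher than vehicle at 500 µg/mL numbered 37 in Astragalus (33.7% of all genes higher), 34 in Paeonia (23.4%), 27 in Rehmannia (10.5%), 21 in Angelica (11.4%), 21 in Cinnamon (7.9%), 19 in Cnidium (15.8%) and 15 in Sagunja-tang (13.8%), and none was lower. DESeq2 also gave none lower, and an unadjusted p under 0.05 gave 1, in Angelica. The median log2 change of the other HIF targets was 1.42 in Astragalus and 1.35 in Paeonia and between 0.30 and 0.52 in the other 5. That of the glycolytic enzymes was 1.296 in Astragalus, 0.53 in Paeonia and between 0.07 and 0.24 in the others. When vehicle was replaced as the reference by the remaining extracts at their lowest dose, Astragalus had 36 members called and Paeonia 34. Angelica had 4 and Cinnamon 3. In Rehmannia 6 enzymes and 9 other targets were higher and none was lower. Of the 16692 genes tested, 7439 were called in Paeonia and 1048 in Angelica under that reference. For the other extracts the number over all genes is not given here, so their counts of members have no background beside them. Against that reference some members were lower, with 9 higher and 6 lower in Cnidium and 7 and 7 in Sagunja-tang, and 1 lower in each of Angelica, Cinnamon and Astragalus. At 100 µg/mL, 15 to 17 of the 22 other targets and 6 to 11 of the 16 enzymes were higher than vehicle in every replicated extract. Background shares of higher genes there ran from 4.17% (Cinnamon) to 19.5% (Astragalus), with 7.33% in Rehmannia, 7.37% in Sagunja-tang, 8.56% in Cnidium, 9.11% in Paeonia and 10.7% in Angelica. In all 7 extracts 1 member was lower, ENO2 in Astragalus (−0.27 ± 0.09, with 20% of all genes lower).

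**Figure D5:**
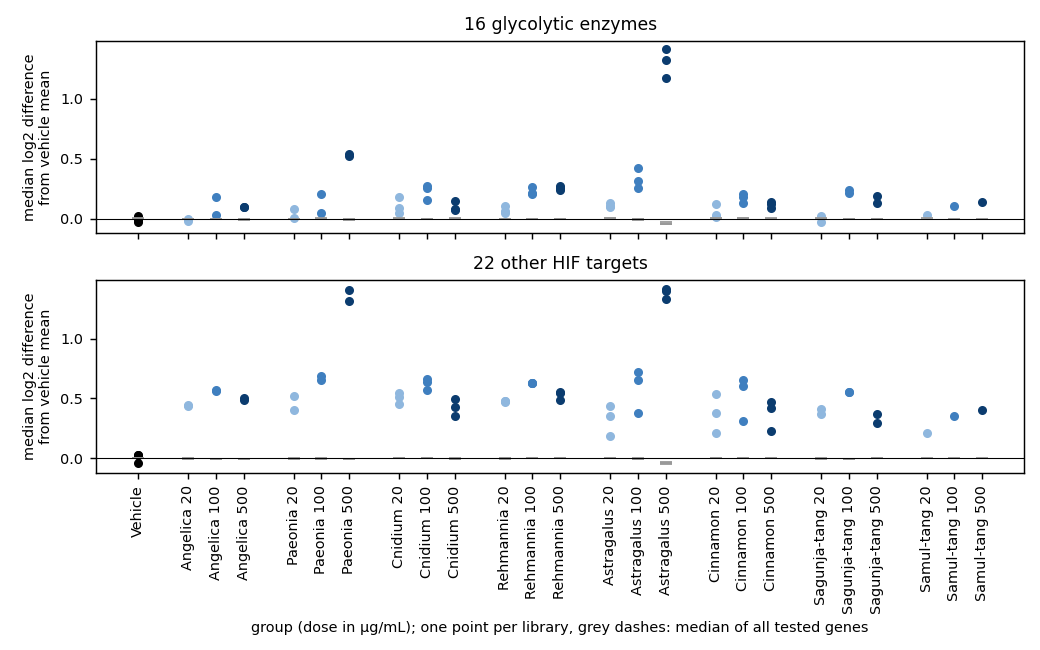
Median log2 difference from the vehicle mean over the 16 glycolytic enzymes (top) and the 22 other HIF targets (bottom) in each library, one point per library and grey dashes for the median of all tested genes. Astragalus at 500 µg/mL stands at 1.17 to 1.41 for the enzymes, and both Astragalus and Paeonia at 500 µg/mL stand above every other library for the other targets.

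Samul-tang combines Angelica, Paeonia, Cnidium and Rehmannia roots and rhizomes and had 1 library per dose, so no test was made. The median log2 ratio to the vehicle mean over the other HIF targets was 0.20 at 20, 0.35 at 100 and 0.37 at 500 µg/mL, and over the glycolytic enzymes 0.02, 0.11 and 0.14. At 500 µg/mL 3 of the 22 targets were at least 1.5-fold above vehicle, against 1.13% of all genes, and none of the 16 enzymes was. NDRG1 was at 58.2, 63.1 and 65.5 CPM and CA9 at 3.77, 6.24 and 5.20 CPM at 20, 100 and 500 µg/mL, above the vehicle libraries each time. At 500 µg/mL, 15 of 16 enzymes and 16 of 22 targets lay within the range of the libraries of its 4 single drugs at that dose. That range takes in Paeonia and is wide, as for SLC2A1 (201 to 634 CPM), so lying within it says little. The share over all genes was not counted.

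Genes of the HIF pathway itself moved in both directions. HIF1A, the alpha subunit, was at 217, 203 and 219 CPM in vehicle and rose by 0.30 ± 0.06 in the mean at 20 µg/mL. With Astragalus it went from 252, 242 and 253 CPM at 20 µg/mL to 143, 145 and 179 CPM at 500 µg/mL (−0.68 ± 0.07, adjusted p = 4.09e-11), and the dose groups did not overlap. With Paeonia it changed by 0.08 ± 0.09, which did not pass. EPAS1, the other main alpha subunit, went from 227, 225 and 237 to 484, 464 and 444 CPM with Astragalus (1.02 ± 0.04) and rose by 0.42 ± 0.05 with Paeonia. Of 15 pathway genes 8 rose and 4 fell in Astragalus, where 69.5% of all genes were called. Among them were CITED2 (1.20 ± 0.09), which limits HIF by competing for its coactivator, and CUL2 (−0.94 ± 0.08), the scaffold of the VHL ligase. In Paeonia 2 rose and none fell (30.6% of all genes called), and in the mean at 20 µg/mL 4 rose and 3 fell (32.3%).

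In a further list of 25 HIF targets, 15 rose and none fell in the mean at 20 µg/mL (15.5% of all genes higher). From 20 to 500 µg/mL 19 rose and 1 fell, WSB1 (−0.55 ± 0.06), in Astragalus (34.2% higher), and 15 rose and none fell in Paeonia (16.8% higher). ANGPTL4, an inhibitor of lipoprotein lipase, rose by 1.67 ± 0.10 in Astragalus, and VLDLR, a lipoprotein receptor, by 1.29 ± 0.15 in Paeonia.

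Of 22 further genes of glycolysis and pyruvate, 17 could be tested. In Astragalus 5 rose and 6 fell (69.5% of all genes called) and in Paeonia 5 rose and 2 fell (30.6%). SLC2A2, the glucose transporter of hepatocytes, fell in both, from 34.7, 35.9 and 36.9 to 16.9, 18.2 and 17.0 CPM with Astragalus (−1.04 ± 0.05) and by 0.87 with Paeonia. ENO3, the muscle enolase, fell by 0.86 and 0.37. HKDC1, a hexokinase-like enzyme, rose by 0.94 ± 0.06 and 0.59 ± 0.08. Of 5 genes of gluconeogenesis 4 were higher in each extract, beside 34.2% of all genes in Astragalus and 16.8% in Paeonia, among them PC (1.83 ± 0.06) and PCK1 (1.78 ± 0.09) in Astragalus and G6PC1 (0.96 ± 0.12) in Paeonia. In the PFKFB family, which sets the activator of phosphofructokinase, PFKFB3 was at 2.33, 2.78 and 1.83 CPM in vehicle and rose by 1.85 ± 0.18 in the mean at 20 µg/mL, more than any of the 38 members, and from 20 to 500 µg/mL by 1.55 ± 0.17 with Astragalus and 1.06 ± 0.21 with Paeonia. PFKFB4 rose by 0.75 ± 0.15, 1.65 ± 0.17 and 0.96 ± 0.21 in the same comparisons.

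Some other features of the same libraries moved as well, and some did not. The share of counts from mitochondrial genes was 13.6% to 15.3% in vehicle and 11.0% to 21.9% in the libraries at 20 µg/mL. At 500 µg/mL it was 19.7% to 22.1% in Paeonia, which overlaps that range, and 24.1% to 26.8% in Astragalus. Its part in the results was not tested. The summed level of the 8 hepatocyte-lineage markers was 53683 to 59203 CPM at 20 µg/mL. At 500 µg/mL it was 55156 to 56095 CPM in Paeonia, within that range, and 35731 to 48187 CPM in Astragalus. From 20 to 500 µg/mL of Astragalus 4 of the 8 fell and 3 rose, beside 69.5% of all genes called. AFP at −1.16 ± 0.06 and ALB at −0.62 ± 0.07 were among the 4 that fell. The summed level of 4 leukocyte markers, nearly all of it LYZ, was 1203 to 1373 CPM in vehicle, 2176 to 2455 CPM in Paeonia and 1245 to 1499 CPM in Astragalus. From 20 to 500 µg/mL CD68 rose in both extracts (0.71 ± 0.16 in Paeonia and 1.499 ± 0.13 in Astragalus), whereas LYZ rose by 0.73 ± 0.10 in Paeonia and fell by 0.25 in Astragalus. The 4 fibroblast and stellate markers summed to 6.28 to 6.93 CPM in vehicle, 17.9 to 18.6 CPM in Paeonia and 15.6 to 19.5 CPM in Astragalus at 500 µg/mL. From 20 to 500 µg/mL PDGFRB rose and COL1A1 fell in both extracts, by 1.29 ± 0.10 and −2.53 ± 0.77 in Paeonia and 1.46 ± 0.08 and −1.89 ± 0.68 in Astragalus. The 4 endothelial markers summed to 1.40 to 3.32 CPM in these groups. From 20 to 500 µg/mL of Astragalus VWF, at 0.22 TPM in vehicle, rose by 0.87 ± 0.29. PECAM1 changed by −0.50 ± 0.24 over that step and did not pass (adjusted p = 0.0577). Against vehicle, PECAM1 at 500 µg/mL of Astragalus was lower, by −0.54 ± 0.24 (adjusted p = 0.0386). PTPRC and DCN were at 0 throughout.

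Across the 25 group means, members were compared with the mean of the other members of their list on the log2 scale. The median Pearson r was 0.93 for the glycolytic enzymes and 0.85 for the other targets. Without Astragalus and Paeonia at 500 µg/mL it was 0.58 and 0.77 over 23 groups, so the likeness of the enzymes rested more on those groups. Most like their list in the 23 groups were BNIP3 (0.97), PDK1 (0.95) and LOX (0.94) of the targets and ALDOA (0.79) of the enzymes, and CA12 (−0.04) and PFKM (−0.02) were least like it. The groups share libraries of a code prefix and a common scaling, and the values are a description.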

How the data were processed

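Directional MGI libraries from HepG2 RNA were read as 100 bp pairs, per the labels' protocols. For each Ensembl gene the authors deposited expected counts. The submitters' processing notes name RSEM 1.3.3, STAR 2.7.3a, Trim Galore 0.6.5, FastQC 0.11.9 and the build GRCh38, and the annotation release is not given in the sources used here. Of 270 columns 60 were used and 210, which belong to other samples, were not. Expected counts (8.21% not whole, tolerance 1e-09) were rounded. Symbols came from GENCODE 29 and a gene table (57055 of 60675 identifiers).

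One edgeR 4.0.16 quasi-likelihood model in R 4.3.3 held all 60 libraries in 25 groups (filterByExpr, 16692 genes, TMM factors 0.784 to 1.102, 35 residual degrees of freedom, common coefficient of biological variation 0.06). Tests were two-sided with Benjamini-Hochberg adjustment over all tested genes within a contrast and a threshold of 0.05. No share over all genes was counted at an unadjusted p under 0.05. Log2 changes and SEs come from this model, and CPM are TMM-scaled. Samul-tang ratios added 0.5 CPM. Replicates differed by more than counting error (chi-square per degree of freedom 2.81 to 63.2 over 48 pairs), and no columns were identical. The highest value was that of replicates 1 and 2 of Rehmannia at 20 µg/mL. Alternatives were DESeq2 1.42.0, RLE factors, library totals, no filter, fits of only the groups compared, a fold minimum of 1.5, blocks by replicate number and omission of each library.

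Members and lists were chosen with earlier results of these data known. Named in each contrast were up to 5 rises and 5 falls per list with at least 5 CPM in the higher group, then all other members in brief, up to 2 genes each way in further lists, and PFKFB3 and HIF1A. VEGFA at 100 µg/mL, the marker genes and the genes most like their list were singled out after their values were seen. Some genes of the further lists are not reported here. Scripts were tested on simulated data.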

Additional observations from a re-analysis of the deposited data

Results flagged for a closer look

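Changes from 20 to 500 µg/mL that differed from the mean change of the other 6 extracts are given here for 1 glycolytic enzyme and 1 other HIF target per extract, those with the smallest adjusted p (edgeR, log2 difference ± SE). In Astragalus ALDOA differed by 1.301 ± 0.06 (adjusted p = 8.21e-22) and BHLHE40 by 1.80 ± 0.08. In Paeonia ALDOC differed by 0.77 ± 0.11 and SLC2A1 by 1.08 ± 0.08 (adjusted p = 2.35e-13). In Cnidium the differences were −0.86 ± 0.10 for ALDOC and −0.93 ± 0.08 for BHLHE40. In Sagunja-tang they were −0.68 ± 0.11 for ALDOC and −0.62 ± 0.09 for BHLHE40, and in Rehmannia −0.28 ± 0.06 for ALDOA and −0.38 ± 0.08 for BHLHE40. In Angelica they were −0.34 ± 0.08 for ALDOA and −0.52 ± 0.08 for SLC2A1, and in Cinnamon −0.45 ± 0.06 for ALDOA and −0.50 ± 0.07 for SLC2A1. The mean of the others includes Astragalus for every extract but Astragalus itself. With Astragalus and Paeonia out of the reference, ALDOC and BHLHE40 in Cnidium still passed, and none of the values of Angelica, Rehmannia, Cinnamon and Sagunja-tang given here did.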

How the results depend on the processing

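Counts of called members kept within 1.5 times under RLE factors and DESeq2 for all 15 main comparisons. A fold minimum of 1.5 left 6 at 20 µg/mL against vehicle, beside 516 of all 16692 genes. From 20 to 500 µg/mL it left 1 in Cnidium (493 of all genes), 0 in Rehmannia and 2 in Sagunja-tang. At 500 µg/mL against vehicle it left 9 in Angelica (546 of all genes), 6 in Cnidium, 11 in Rehmannia, 8 in Cinnamon and 1 in Sagunja-tang. Here and below, a count of members without a number of all genes beside it cannot be set against the background. Against the remaining extracts at their lowest dose in place of vehicle, Angelica had 4 (1048 of all genes), Rehmannia 15 and Cinnamon 3. Without a filter, the change from 20 to 500 µg/mL called 2 in Angelica (385 of all genes), 2 in Rehmannia and 1 in Cinnamon. Rehmannia had 0 with library totals and 0 with only the groups compared, where all genes called fell from 235 to 17. Leaving out single libraries gave 0 to 2 in Rehmannia and 4 to 5 in Sagunja-tang, and 34 to 37 in Astragalus and 32 to 33 in Paeonia. Library totals turned VEGFA (−0.21) and KDM3A (−0.12) in Astragalus from 20 to 500 µg/mL, and HK2 (−0.0799) and VEGFA (−0.27) in Astragalus against the other extracts, and the cause was not tested beyond the shift of all genes. With library totals the median log2 change of all genes moved from 0.003 to −0.108 in Paeonia from 20 to 500 µg/mL, and against vehicle from −0.050 to −0.435 in Astragalus and from −0.015 to −0.226 in Paeonia. Same-numbered libraries had a mean residual correlation of 0.003 across vehicle and extracts and 0.02 within a code prefix. These means run over all genes and all prefixes. They cannot show whether something was shared within a single prefix, as in the number 1 libraries of Astragalus and Cinnamon. The replicate block gave 35 in Astragalus and 33 in Paeonia, and by code prefix 1 in Angelica in place of 0. Of genes near 1 CPM, such as CA12, PFKP and PFKM, the depth limits what can be seen.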
